A study of Mus musculus with 3 samples.

Results

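Transcripts of 10 genes that carry the cell death signal of tumour necrosis factor (TNF) receptors were followed in RAW 264.7 cells, a mouse macrophage line, in 3 libraries. The genes were taken by mouse symbol from the 54331 features of the deposited table, by a rule that uses no values. Earlier results of these data were known when they were chosen. All 10 were found and had a mean value of at least 10. They are the receptors Tnfrsf1a, Tnfrsf1b and Fas, the adaptors Tradd and Fadd, the kinases Ripk1 and Ripk3, the necroptosis effector Mlkl, the protease Casp8 and its regulator Cflar. All cells were from a male BALB/c background per the labels and received bacterial lipopolysaccharide (LPS), which TLR4 senses, for 5 h at 100 ng/mL. The control library carried a control shRNA and is labelled wild-type, and the other 2 libraries are labelled GIV-depleted, each with a different shRNA against GIV (Girdin, gene Ccdc88a), and are called by the sh1 and sh2 of their titles. No library without LPS was analysed here, so the values describe stimulated cells only. The control is a single library without replicate error.

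Binding of TNF to its receptor TNFR1 assembles a membrane complex of TRADD, RIPK1 and ubiquitin ligases that signals to NF-kB and supports survival. When that complex is not sustained, FADD and caspase-8 form a cytosolic complex that can execute apoptosis, with the caspase-like protein c-FLIP setting how far caspase-8 is activated. Where caspase-8 is inactive, RIPK1 and RIPK3 join through their RHIM motifs and RIPK3 phosphorylates MLKL, which breaks the plasma membrane in necroptosis. Macrophages are known both as makers of TNF and as cells that can die this way after TLR stimulation.

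In these libraries the transcript of the death domain receptor TNFR1 stood apart from the rest of the machinery. Tnfrsf1a was 3.95 and 3.35 times as high in the libraries labelled GIV-depleted as in the control, a mean log2 difference of 1.86 (SE 0.16) that did not pass an adjusted p of 0.05 in limma (0.16). The other 9 members had log2 differences between -0.42 (Mlkl) and 0.16 (Cflar), and none of these 9 passed 1.5-fold in both libraries. Over all features tested, 5.09% were that much higher in both and 2.82% that much lower, so nothing is read from that count over 9 genes. Lower values in both libraries were seen for 6 members, Tnfrsf1b, Fas, Tradd, Ripk3, Mlkl and Casp8, against 35.2% of all features tested. Both libraries were set against the same single control. Differences are on the log2(value + 1) scale, library labelled GIV-depleted minus control, and values are the normalized counts that the authors deposited.

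The bases before the start sites of both TNF receptors are shown because the 2 genes differed in their values here. Each sequence is the 200 bases before the RefSeq start, 5′ to 3′ on the gene's strand, from RefSeq on GRCm38.p6, and neither window overlaps an annotated exon of its gene. The Tnfrsf1a window is chr6:125349523-125349722 on the plus strand and the Tnfrsf1b window is chr4:145246871-145247070 on the minus strand. The Tnfrsf1a window precedes the RefSeq start but lies downstream of the gene start in GENCODE M21, and the bases before that start were not searched. Capitals mark matches to the motifs searched.
Tnfrsf1a: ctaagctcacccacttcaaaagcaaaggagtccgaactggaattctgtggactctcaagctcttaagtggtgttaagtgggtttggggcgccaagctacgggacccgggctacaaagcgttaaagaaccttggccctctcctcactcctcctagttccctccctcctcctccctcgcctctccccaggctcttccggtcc
Tnfrsf1b: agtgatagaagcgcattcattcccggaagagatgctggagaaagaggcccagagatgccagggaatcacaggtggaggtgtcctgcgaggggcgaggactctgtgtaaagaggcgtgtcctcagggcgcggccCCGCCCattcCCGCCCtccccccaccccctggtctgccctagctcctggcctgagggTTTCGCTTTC
The motifs, on both strands, were the kappaB consensus of NF-kB, the core of the interferon-stimulated response element (GAAANNGAAA), AP-1 (TGANTCA), the GC box (GGGCGG) and a PU.1 core (GAGGAA). The Tnfrsf1a window held no match to any of them, and neither did the windows of Mlkl, Casp8 and Cflar. The Casp8 window, chr1:58802302-58802501 on the plus strand, also lies downstream of its gene start in GENCODE M21, at 58795374. The bases before that Casp8 start were not searched. The Tnfrsf1b window held a pair of GC boxes and, in the last 10 bases before the start, a match to the interferon-stimulated response element core on the opposite strand. Among 32851 promoter windows of the same length, 31.05% held a GC box, 2.27% the interferon-stimulated core, 5.48% AP-1, 6.07% the kappaB consensus and 19.03% the PU.1 core. A promoter was found for 9 of the 10 members, in 10 windows, since Ripk1 has a pair of starts. None of these 10 windows held the kappaB consensus or AP-1, 6 held a GC box, and 1 each held the other motifs. A match is a match of letters and was not tested as a binding site.

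Totals were 47349097 to 49756670 normalized counts, which the scaling evens out and which are not depths. The commonest low value, worth about 1 read, was 0.931 in the control, 1.11 in the library labelled sh1 and 0.966 in the library labelled sh2, so a given value rests on the fewest reads in the library labelled sh1. Ccdc88a, the gene targeted, had 2580 in the control, 1734 in the library labelled sh1 and 2561 in the library labelled sh2, so the label of the last is not matched by its mRNA. Every direction shared by both libraries rests in part on that library. All 8 macrophage markers examined were present, with a summed level of 333210 in the control and of 224914 and 256125 in the other 2. Most of that gap lay in Lyz2 (199781, 121997 and 138145). Fcgr1 (48715, 32239 and 33167), Csf1r (18776, 9476 and 15612), Cd68 (24739, 19827 and 22553) and Mertk were also lower in both. Adgre1 (7150, 6272 and 7912) and Itgam were lower in the library labelled sh1 and higher in the library labelled sh2. Only Ptprc was higher in both (14039, 16968 and 14590). Of the T cell, fibroblast and epithelial markers, 0 of 14 reached a mean value of 10, and Cd3e and Epcam were listed at 0 throughout. The summed lists of other cell types ran from 3.34 to 3.85 (T cell), 143 to 172 (B cell, nearly all Pax5), 3.34 to 5.61 (fibroblast), 0 to 4.45 (epithelial), 45.6 to 77.4 (neutrophil and mast cell) and 300 to 398 (dendritic cell, mostly Xcr1, with Flt3 and Siglech at 0). The share of mitochondrially encoded transcripts was 1.43% in the control against 0.995% (sh1) and 1.14% (sh2). Also examined for RNA quality, Neat1 had 22586 in the control, 12486 (sh1) and 13729 (sh2), lower in both. Malat1 had 9410, 11121 and 12513 in that order, higher in both. The part of these shifts in the members' differences was not tested.

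Tnfrsf1a encodes TNFR1, the receptor of TNF whose cytoplasmic death domain recruits TRADD and RIPK1. The gene (ENSMUSG00000030341.17) lies on chromosome 6, 125349362 to 125362484, plus strand (GENCODE M21, GRCm38). Its normalized count was 5123 in the control, 20227 in the library labelled sh1 and 17149 in the library labelled sh2. Both libraries labelled GIV-depleted were far above the control and close to each other, at 3.95 and 3.35 times the control and 1.18-fold apart. The log2 differences were 1.98 and 1.74. More RNA per cell and more cells with the RNA cannot be told apart in such bulk libraries. In limma's moderated fit over all 13877 features tested, the mean difference of 1.86 (SE 0.16) had an unadjusted p of 0.00029, the 22nd lowest, and an adjusted p of 0.16. No feature passed in that fit, 0% of those tested, and 963 had an unadjusted p under 0.05. Tnfrsf1a was the only member among these, and 4.52% of all features tested had an unadjusted p under 0.05 with a higher value. By size, Tnfrsf1a was at least 1.5-fold higher in both libraries, as were 5.09% of all features tested, so 1 of 10 members lies near that background. Ordered by the smaller of the 2 differences, it stood 150th of all 13877 features and 86th of 11611 protein-coding genes. By absolute mean difference it stood 280th of all features. Its rank by p in limma ran from 7th under quantile normalization to 126th without the variance trend and 664th without the filter on low values. The library with Ccdc88a at the control's level (labelled sh2) had nearly as large a difference as the library with lower Ccdc88a. With the trend of values with transcript length and GC content removed, the difference was 1.98 and the adjusted p in limma 0.069. That was the lowest adjusted p for Tnfrsf1a among the refits, and the highest was 0.42, without the variance trend.

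**Figure D1:**
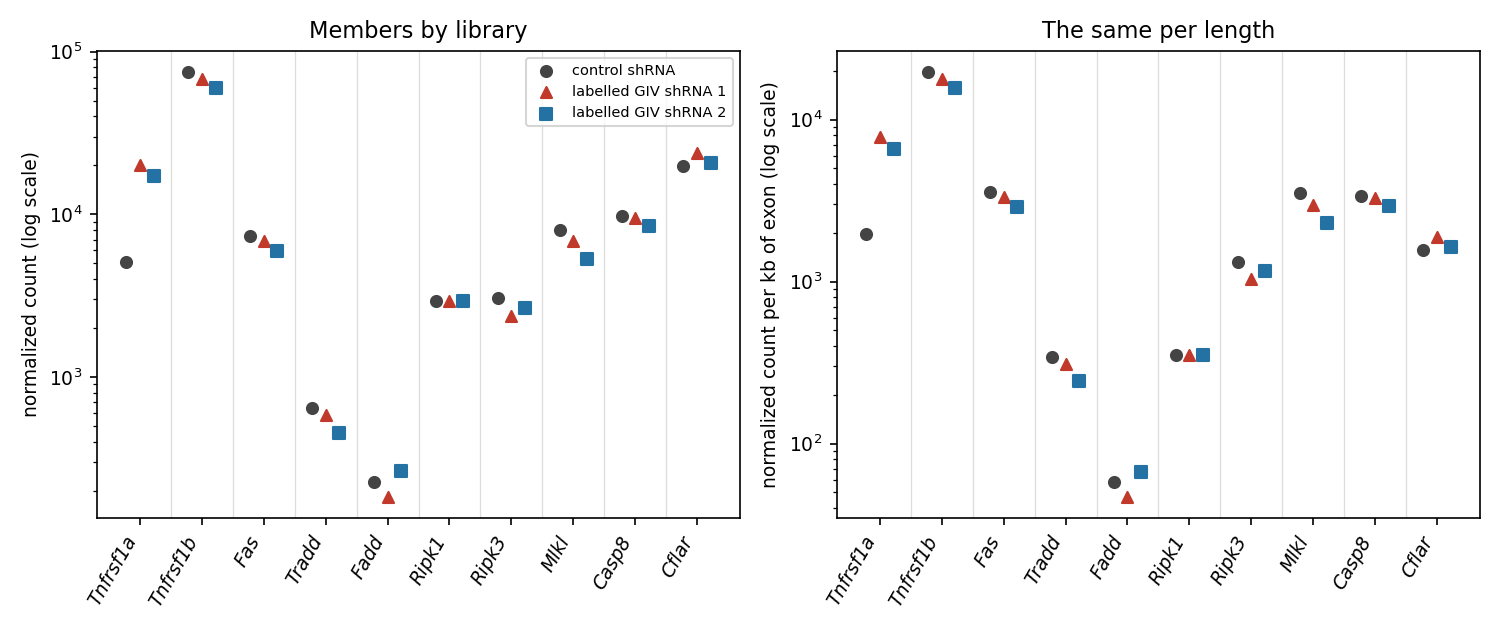
Normalized counts of the 10 members in each of the 3 libraries on a log axis (left) and the same values per kb of merged exon length (right), 1 point per library with no error bars. Tnfrsf1a lies at 5123 in the control and at 20227 and 17149 in the libraries labelled sh1 and sh2, while the other members span less, the widest being Mlkl from 5289 to 8066 and Fadd from 183 to 263.

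The receptors Tnfrsf1b and Fas did not share this pattern. Tnfrsf1b encodes TNFR2, the TNF receptor without a death domain, and was the most abundant member per kb of exon, with a normalized count of 75055 in the control, 67607 in the library labelled sh1 and 59939 in the library labelled sh2. Both libraries labelled GIV-depleted were below the control, and the mean log2 difference was -0.24 (SE 0.16, limma adjusted p = 0.80). Fas, the receptor of Fas ligand, had 7319 in the control, 6833 and 5950, again lower in both, with a difference of -0.20 (SE 0.15, limma adjusted p = 0.82). Neither difference was large against its error. Within each library the ratio of the receptors does not depend on library scaling. Per kb of merged exon, Tnfrsf1b was 9.94 times Tnfrsf1a in the control, 2.27 times in the library labelled sh1 and 2.37 times in the library labelled sh2. TNFR2 transcript thus remained the more abundant of the pair in every library, by a smaller margin in the 2 libraries labelled GIV-depleted.

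The adaptors were the least abundant members per kb of exon. Tradd, which links TNFR1 to RIPK1 and TRAF2, had a normalized count of 641 in the control, 582 in the library labelled sh1 and 452 in the library labelled sh2. Both were below the control, the second further than the first, and the mean difference was -0.32 (SE 0.25, limma adjusted p = 0.83). Fadd, the death domain adaptor of caspase-8, had 226 in the control, 183 and 263. Its libraries labelled GIV-depleted lay on opposite sides of the control, at log2 differences of -0.30 and 0.22, a gap of 0.52 that was the widest between them for any member. The ratio of Tnfrsf1a to Tradd per kb was 5.76 in the control, 25.0 in the library labelled sh1 and 27.3 in the library labelled sh2.

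The necroptosis kinases and their effector had equal or lower values. Ripk1, the kinase that decides between survival and death signalling, had a normalized count of 2933 in the control, 2939 in the library labelled sh1 and 2932 in the library labelled sh2. These values were equal to within 0.01 on the log2 scale, with a mean difference of 0.00 (SE 0.13). That near-zero difference turned to -0.019 under quantile normalization and to -0.11 with the length and GC trend removed.

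Ripk3, the kinase that activates MLKL, had a normalized count of 3044 in the control, 2364 in the library labelled sh1 and 2648 in the library labelled sh2, lower in both. Its mean difference was -0.28 (SE 0.15, limma adjusted p = 0.76). Mlkl, the pseudokinase that permeabilizes the membrane, had 8066 in the control, 6875 and 5289. It was lower in both libraries, with log2 differences of -0.23 and -0.61, so only the library labelled sh2 was past 1.5-fold. Its mean difference of -0.42 (SE 0.20, limma adjusted p = 0.75) was the largest negative one among the members. The ratio of Mlkl to Ripk3 per kb was 2.64 in the control, 2.89 in the library labelled sh1 and 1.99 in the library labelled sh2, with no shared direction. The ratio of Ripk3 to Ripk1 was 3.78, 2.93 and 3.29 in that order, lower in both.

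Casp8 and its regulator Cflar are neighbours on chromosome 1, with gene starts 83.9 kb apart in GENCODE M21. Casp8, the initiator protease of death receptor apoptosis, had a normalized count of 9799 in the control, 9528 in the library labelled sh1 and 8446 in the library labelled sh2. Its mean difference was -0.13 (SE 0.14, limma adjusted p = 0.86). Cflar, which encodes c-FLIP, had 19924 in the control, 23941 and 20710, slightly above the control in both, with a difference of 0.16 (SE 0.15, limma adjusted p = 0.85). That of Cflar was 0.04 with the length and GC trend removed. The ratio of Cflar to Casp8 was 1.24 times the control's in the library labelled sh1 and 1.21 times in the library labelled sh2. Of the 7 tested features other than Casp8 overlapping the 250 kb on either side of it, Cflar included, 0 were past 1.5-fold in both libraries in the same direction. Over all features 5.09% were that much higher and 2.82% that much lower, and nothing is read from a count over 7 features.

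Read against the whole table, the members other than Tnfrsf1a lay near the centre of all features, more of them lower than higher. Of the 10 members, 6 were lower in both libraries at any size, against 35.2% of all features tested, and 2, Tnfrsf1a and Cflar, were higher in both. The remaining 2 were Fadd and Ripk1. Ripk1 and Fadd had library differences of opposite sign, the former by under 0.01. The median difference was -0.16 over the 10 members and -0.20 without Tnfrsf1a, against 0.00 over all features. None was at least 1.5-fold lower in both libraries, against 2.82% of all features. Both differences of a gene share the same control.

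**Figure D2:**
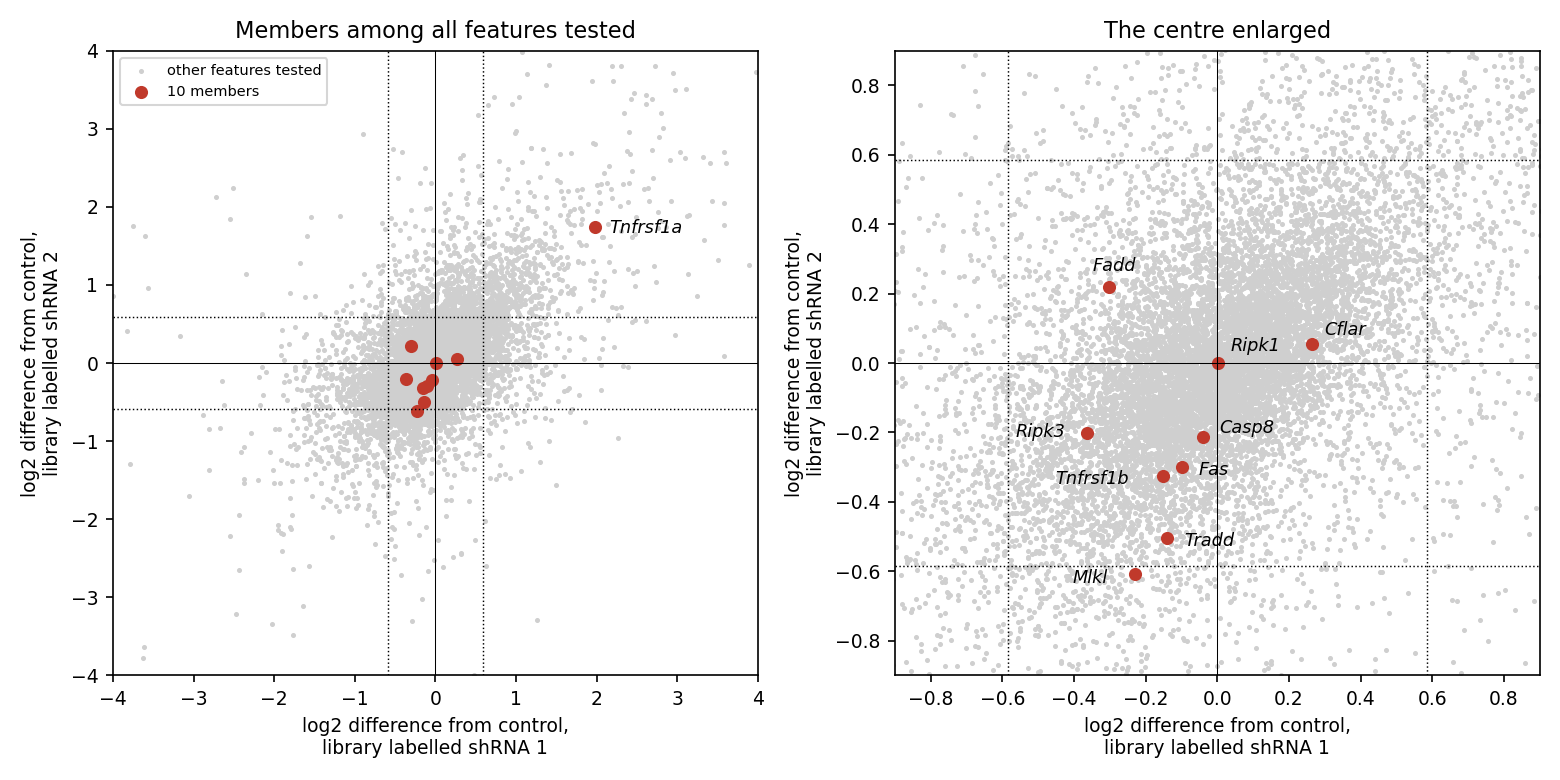
Log2 difference from the control of the library labelled sh1 (x axis) and of the library labelled sh2 (y axis), for the members in red and the other features in grey, with 160 features beyond the limits not shown, and an enlarged centre at right. Dotted lines mark 1.5-fold; Tnfrsf1a lies at 1.98 and 1.74, and the other 9 members lie inside the 1.5-fold lines except Mlkl on the y axis.

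Per kb of merged exon, the order of levels in the control was Tnfrsf1b (19658 normalized counts per kb), Fas (3549), Mlkl (3503), Casp8 (3387), Tnfrsf1a (1977), Cflar (1573), Ripk3 (1328), Ripk1 (352), Tradd (344) and Fadd (57.9). The neighbours Fas and Mlkl, Mlkl and Casp8, and Ripk1 and Tradd differed by 1.01, 1.03 and 1.02 times. That is less than the gap between the 2 libraries labelled GIV-depleted for at least 1 gene of each pair, which was 1.15-fold for Fas, 1.30-fold for Mlkl, 1.13-fold for Casp8 and 1.29-fold for Tradd. Tnfrsf1a moved from the fifth place in the control to the second in both other libraries, with 7806 and 6619 per kb. By longest transcript instead of merged exons, Cflar stood above Tnfrsf1a in the control and 8 of 10 members kept their place. Protein levels, receptor shedding and cell death itself were not measured.

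The genes around Tnfrsf1a are given by their values, in a window chosen after those of Tnfrsf1a were seen. Of 13 tested neighbours overlapping the 250 kb on either side, 0 were at least 1.5-fold higher in both libraries and 1, Iffo1, was that much lower (495 in the control, 289 and 286). Over all features the shares were 5.09% and 2.82%, and nothing is read from either count over 13 genes. Ltbr, the lymphotoxin beta receptor, starts 35.5 kb away and had 3275, 1856 and 2446, lower in both libraries with a difference of -0.62 (SE 0.22). Plekhg6, on the other side, was near the filter, with 15.7, 19.9 and 7.81. Gapdh, in the same window, had 73304, 70655 and 77237.

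**Figure D3:**
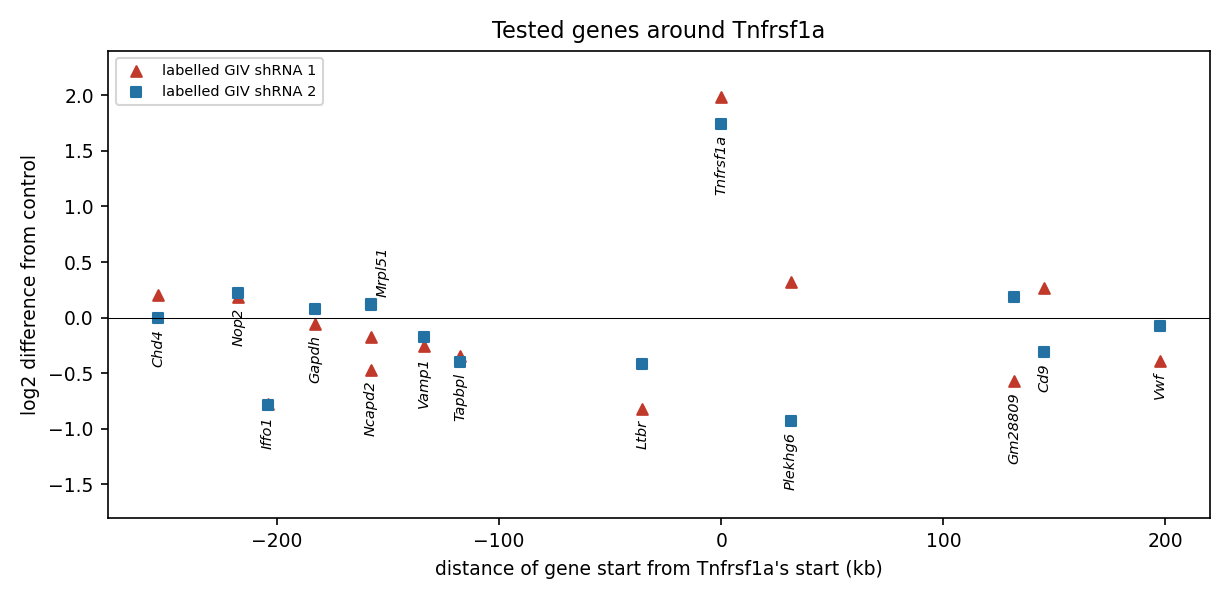
Log2 difference from the control (y axis) of Tnfrsf1a and its 13 tested neighbours by the distance of their gene starts from that of Tnfrsf1a in kb (x axis), 1 point per library labelled GIV-depleted. Tnfrsf1a stands at 1.98 and 1.74, and every neighbour lies below 0.5 in both libraries.

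Among the TNF receptor superfamily as a whole, a set chosen by symbol after values were seen, 18 of 28 receptors were tested. At least 1.5-fold higher in both libraries were 4 of these 18, and 0 were lower by that rule, against 5.09% and 2.82% of all features tested. With so few receptors, chosen after their values were seen, nothing is read from this count. Besides Tnfrsf1a these were Tnfrsf9, the T cell costimulator 4-1BB, with a normalized count of 213 in the control, 327 and 466, and Tnfrsf22, a decoy receptor, with 141, 226 and 249. The last was Tnfrsf13b, with 1.89, 19.3 and 9.22, which passed the filter on low values only through the libraries in which it was high. For none of the 4 did the adjusted p in limma pass 0.05, the lowest being that of Tnfrsf1a at 0.16.

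By distance in the 2 differences, the protein-coding genes most like Tnfrsf1a among 10389 candidates were Camsap1, with 537 in the control, 2251 and 1643 (distance 0.16), Gga3, with 1161, 4076 and 4003 (0.17), and Cbx8, with 30.7, 103 and 107 (0.27). Those most like Mlkl were H2-T23, with 14264 in the control, 12163 and 9336 (distance 0.003), H2-D1, with 90580, 76800 and 59703 (0.01), and Ifi205, with 3189, 2738 and 2073 (0.02). This likeness rests on 3 libraries.

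Of 42 further genes of the pathway, 40 were tested and none passed an adjusted p of 0.05 in limma. Past an unadjusted p of 0.05 in limma were 4, of which 3 were higher (Lta, Birc3 and Ikbkb). Over all 13877 features tested 963 were past it, and 4.52% were past it with a higher value. Higher in both libraries were 15, lower in both 17, and 8 were of opposite sign, with a median difference of 0.00. Among all features tested, 4844 were higher in both and 4882 lower. At least 1.5-fold higher in both was 1 of 40, Lta, and 0 were that much lower, against 5.09% and 2.82% of all features tested. Nothing about the pathway list is read from these counts, nor about its groups from the counts given below.

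Among ligands and shedding factors, Tnf itself had a normalized count of 35124 in the control, 41171 in the library labelled sh1 and 41924 in the library labelled sh2, a difference of 0.24 (SE 0.13, limma adjusted p = 0.76). Lta, which encodes lymphotoxin alpha, another ligand of both TNF receptors, had 116, 194 and 251, a difference of 0.92 (SE 0.31, limma adjusted p = 0.70). Tnfsf10, the death ligand TRAIL, went the other way, with 1954, 1587 and 1224. Fasl was listed at 0 in every library. Tnfrsf10b, the TRAIL receptor, had 306, 332 and 329.

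Among TRAFs and ubiquitin ligases of the TNFR1 complex, 2 of 8 lay above the control in both libraries and 4 below it. Over all 13877 features tested, 4844 lay above the control in both and 4882 below it. Traf1 had 7505 in the control, 12157 and 8931, and Rnf31, the catalytic subunit of the linear ubiquitin ligase, had 2953, 1973 and 2384. Among deubiquitinases and ubiquitin adaptors 3 of 6 were higher in both and 1 lower. Cyld, which trims the ubiquitin chains of RIPK1, had 1684, 2042 and 1815, and Optn was near the filter, with 11.2, 14.5 and 29.2.

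Of the kinases and their adaptors, 4 of 12 lay above the control in both libraries and 5 below it. Over all 13877 features tested these numbers were 4844 and 4882. Ikbkb, the IKK-beta kinase that activates NF-kB, had a normalized count of 2533 in the control, 3786 and 3471, a difference of 0.52 (SE 0.14, limma adjusted p = 0.63). Tab1, a partner of TAK1, had 849, 560 and 802, below the control in both libraries and past 1.5-fold in the library labelled sh1. Of the genes whose proteins share the RHIM motif with RIPK1 and RIPK3, Zbp1 had 23475, 21537 and 17862, and Ticam1, the adaptor TRIF, had 3191, 3435 and 2946.

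Downstream, 3 of 6 genes of execution and its control lay above the control in both libraries and 3 below it. Over all 13877 features tested these numbers were 4844 and 4882. Named after their values were seen, Xiap, an inhibitor of caspases, had a normalized count of 7967 in the control, 10347 in the library labelled sh1 and 8093 in the library labelled sh2. Bid, which links caspase-8 to mitochondria, had 4169, 3835 and 4094. Diablo, a mitochondrial antagonist of XIAP, had 1550, 1670 and 1564.

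**Figure D4:**
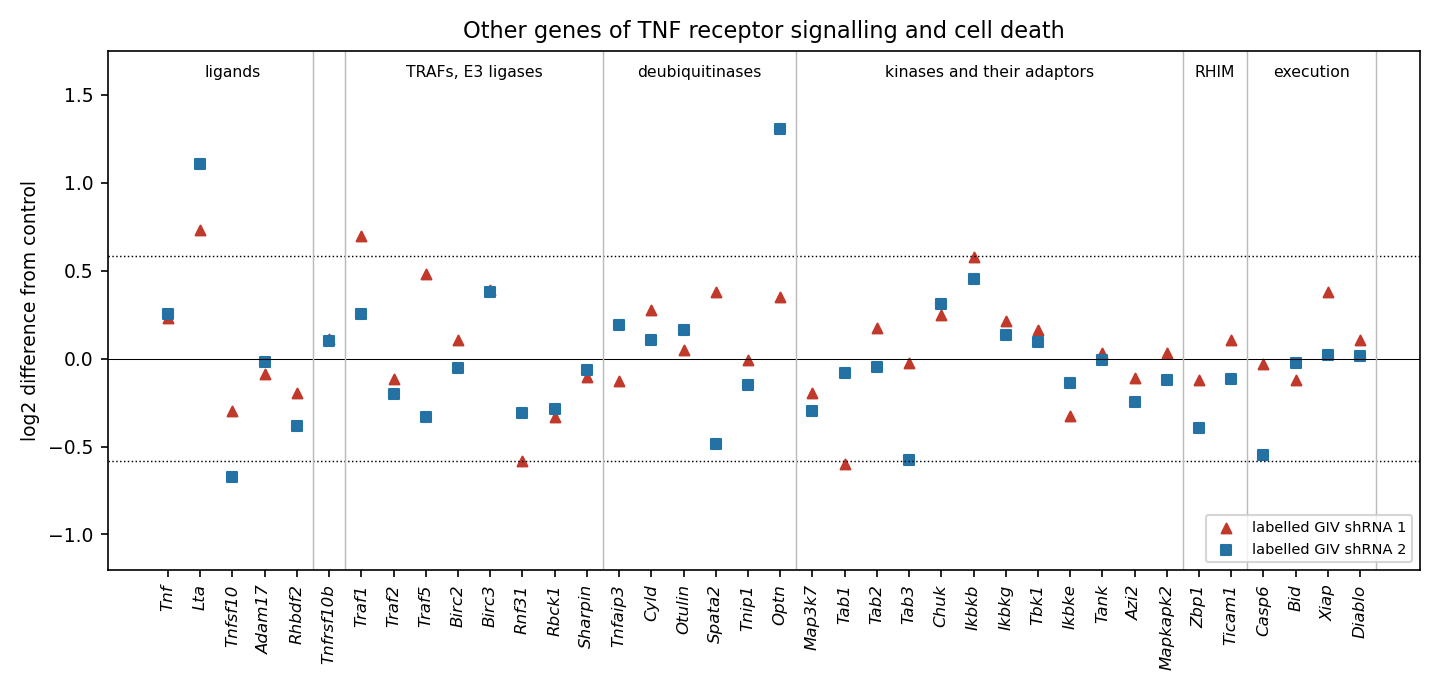
Log2 difference from the control (y axis) of 38 of the tested pathway genes (x axis), grouped by role, 1 point per library labelled GIV-depleted, with dotted lines at 1.5-fold. Lta lies above the upper line in both libraries, and Ikbkb lies between 0 and that line in both.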

How the data were processed

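Stranded mRNA libraries of LPS-treated RAW 264.7 cells were measured in 3 samples, grouped by their titles as 1 control shRNA and 2 GIV shRNA libraries. The deposited table holds normalized counts, a signal that is never negative and is not scaled to length. Per the submitters' processing notes, the authors used GRCm38, and Salmon, DESeq and DESeq2 are listed there without roles or an annotation release. A count model was not fitted because the values are not whole numbers.

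Identifiers were matched without version to GENCODE M21, which named 54097 of 54331. The 13877 features with a mean of at least 10 were fitted on the log2(value + 1) scale with limma 3.58.1 in R 4.3.3 (mean-variance trend, two-sided, Benjamini-Hochberg adjustment over all features). The fit has 1 residual degree of freedom, from the 2 GIV shRNA libraries, and treats the single control as equally variable. The design text calls the 2 shRNAs biological replicates, and no label names separate cultures, so p-values reflect only how far these libraries differ. Each shRNA alone has no test. The script was tested on simulated data.

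All members are named, with Ccdc88a, Tnf, the 2 genes of each pathway group with the largest absolute difference, and the 3 genes nearest to the 2 members with the largest difference. Some genes that this rule names are not reported here. Members, lists and tests were chosen with earlier results of these data known. Alternatives changed the pseudocount, the low-value filter, the scaling, the variance trend, the fold rule, gene length and each GIV shRNA library.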

Additional observations from a re-analysis of the deposited data

How the results depend on the processing

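No member reached an adjusted p of 0.05 in limma under any of the 9 refits, in which that of Tnfrsf1a ranged from 0.069 (length and GC trend removed) to 0.42 (no variance trend) and its log2 difference from 1.86 to 1.98. Tnfrsf1a was past 1.5-fold in both libraries in every setting run, and past a fold rule of 2. The sign of Ripk1 reversed to -0.019 under quantile normalization and to -0.11 with the length and GC trend removed, and no other member changed sign over both libraries. Over all features, 0 were called, and 1 with a mean value of at least 50, with equal column totals, with the median of ratios and with the length and GC trend removed. That feature was Gm10443, a processed pseudogene listed at 0 in the control and at 1313 and 1367 in the other 2, named after its values were seen. Pathway genes past 1.5-fold in both libraries numbered 1, against 2 without a filter on low values (Tnfrsf25 added, at 0 in the control and at 1.89 and 0.57), 0 with a fold rule of 2 and 5 with the lower alternative fold rule (Birc3, Ikbkb and Optn among those added). With a single library labelled GIV-depleted, leaving the other out, members past 1.5-fold numbered 1 to 2 (Mlkl added by the library labelled sh2) and pathway genes 3 with either, as values with no test. The call over all features could not be refitted with 1 library a group. No paired analysis was possible because a single control library serves both GIV shRNA libraries. Of the genes named, Optn, Tnfrsf13b and Plekhg6 lie near the filter of 10, and counting error was not tested.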
